A study of Homo sapiens with 2 samples.

Results

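Luminal-keratin skewed cells were the cells whose keratin RNA leaned farthest from the basal pair KRT5 and KRT14 towards the luminal pair KRT8 and KRT18. Each cell was scored by the log2 of its KRT8 and KRT18 UMIs plus 1 over its KRT5 and KRT14 UMIs plus 1, and a cell was a member at or above the 95th percentile of the score over the pooled cells of both libraries. A UMI is a molecular tag that counts 1 captured RNA molecule. Of 24107 cells with over 2500 detected genes and under 7.5% mitochondrial UMIs, 1210 were members. Of these, 389 came from RWPE-ERG-mAKT and 821 from RWPE1. The members were chosen by the UMIs of these 4 score genes, so their levels are given below as a description only.

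In the pseudostratified epithelium of the prostate, basal cells sit on the basement membrane, anchor through hemidesmosomes and laminin, and express KRT5, KRT14 and the transcription factor TP63. Luminal cells line the duct, carry KRT8 and KRT18 together with tight junction proteins, and in the adult gland express secreted proteins. Cultured prostate epithelial lines are mostly basal in character. KRT6A, KRT16 and KRT17 are keratins that stratified epithelia switch on after wounding or in culture.

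The study profiled single cells of RWPE1, an immortalized prostate epithelial line with no tumour origin, by droplet 3' RNA sequencing. The RWPE-ERG-mAKT library came from RWPE1 cells that carried retroviral ERG, a transcription factor of the ETS family driven from the HNRNPA2B1 promoter, and AKT1 made constitutively active by a myristoylation signal (mAKT). The RWPE1 library was labelled as the vector-only control of the same line. The methods describe drug selection of infected cells and no cloning step, and 10000 cells were loaded for each library. Each condition has a single library, so the conditions were not tested against each other, the cells of a library are not replicates, and the intervals below (95%) cover counting error only.

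The RWPE1 library held cells of 2 kinds that the labels do not name. Of its 9967 cells, 8152 had no UMI of 11 Y-linked genes, 312 had 1 and 1430 had 3 or more. Cells with 2 or more numbered 1503 (15.1%), and in RWPE-ERG-mAKT they numbered 13659 of 14140 (96.6%). Only 1 of the 1503 RWPE1 cells was a member, so nearly all RWPE1 members (820 of 821) belonged to the kind with 0 or 1 Y-linked UMI, whereas 373 of 389 RWPE-ERG-mAKT members (95.9%) had 2 or more. The RWPE1 cells with 2 or more such UMIs expressed VIM at 1269 CPM (counts per 1000000 UMIs), against 107 CPM in the non-member RWPE1 cells with 0 or 1. For that reason the RWPE1 comparisons below are also given without the 1503 cells wherever this changed a call. That division was made after the data were seen.

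Members made up 2.75% of RWPE-ERG-mAKT cells (2.49 to 3.03, exact binomial) and 8.24% of RWPE1 cells (7.70 to 8.79). Without the 1503 RWPE1 cells the RWPE1 share was 9.69%. Among cells with 2 or more Y-linked UMIs the order of the libraries was the other way round. There the share was 2.73% in RWPE-ERG-mAKT (2.46 to 3.02) and 0.0665% in RWPE1 (0.00168 to 0.370). Median depth in these cells was close, at 13826 UMIs in RWPE-ERG-mAKT and 13787 in RWPE1. The direction of the share between libraries therefore depended on which RWPE1 cells were counted, and the conditions cannot be told apart from the kind of cell.

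The score had no gap at the limit. The limit stood at 1.29, at which the luminal pair (plus 1) outnumbers the basal pair (plus 1) by 2.44 to 1. In RWPE-ERG-mAKT 128 members lay within 0.25 above it and 203 cells within 0.25 below it, and in RWPE1 232 members and 298 cells did. The RWPE-ERG-mAKT member nearest the limit had 11 KRT8, 10 KRT18, 5 KRT5 and 3 KRT14 UMIs, and the cell just under it had 29, 60, 31 and 5. In RWPE1 the nearest member had 7 KRT8, 14 KRT18, 8 KRT5 and 0 KRT14 UMIs, and the cell just under it 8, 30, 15 and 0. Members were thus the upper range of a score without a gap at the limit. A score of 4 genes cannot show whether they were a separate type, which was not tested.

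**Figure D1:**
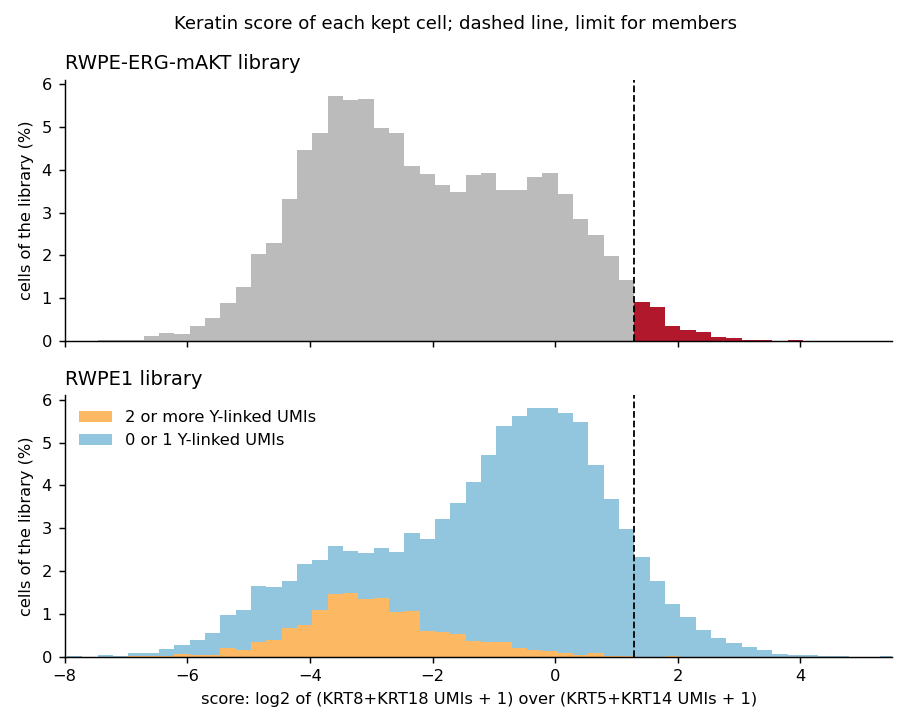
Distribution of the keratin score (x axis, log2 ratio) as the percent of cells of each library (y axis), in bins of 0.25 log2 units, with members in red above the dashed limit of 1.29 in RWPE-ERG-mAKT (top). In RWPE1 (bottom) the cells with 2 or more Y-linked UMIs lie at low scores (median -3.06), and those with 0 or 1 reach past the limit (median -0.50).

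Every member fell below its library's median of KRT5 plus KRT14 per 10000 UMIs, and 380 of 389 RWPE-ERG-mAKT members and 780 of 821 RWPE1 members lay above the median of KRT8 plus KRT18. KRT8 (GRCh38 chromosome 12, 52897187 to 52949954) stood at 950 CPM in RWPE-ERG-mAKT members and 312 CPM in the other cells, and at 898 CPM in RWPE1 members and 411 CPM in the other cells. KRT18, its partner, stood at 1261 and 523 CPM in RWPE-ERG-mAKT and at 2237 and 1107 CPM in RWPE1, members first. The annotated span of KRT18 (52948871 to 52952901) overlaps the start of KRT8, which lies on the opposite strand. KRT5 (chromosome 12, 52514575 to 52520687) had 487 CPM in RWPE-ERG-mAKT members and 2050 in the other cells, and 731 in RWPE1 members and 2198 in the other cells. KRT14 (chromosome 17, 41582279 to 41586921) had 113 CPM in RWPE-ERG-mAKT members and 2247 in the other cells, and 72.2 in RWPE1 members and 1733 in the other cells. The members kept KRT5 RNA at 4.36 and 6.77 UMIs per 10000 in the median cell of RWPE-ERG-mAKT and RWPE1, while KRT14 was at 1.01 and 0.452. Of the 4 score genes, KRT14 differed by the largest factor in both libraries (log2 ratios of -4.31 and -4.59).

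Members and other cells had similar depth. The members' median depth was 13046 UMIs in RWPE-ERG-mAKT, against 13618 in the other cells, and 16443 UMIs in RWPE1, against 17023. Median mitochondrial content was 3.17% in RWPE-ERG-mAKT members and 2.72% in the other cells, and 5.32% in RWPE1 members and 5.45% in the other cells. Of the deepest 5% of cells in each library, 19 of 389 RWPE-ERG-mAKT members and 36 of 821 RWPE1 members were part (4.88% and 4.38%). Doublets were not removed. The libraries shared 55 barcodes, none of which was a member in both, and 5 kept RWPE1 cells, 1 of them a member, had UMIs of brain-type genes.

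Among keratins outside the score, KRT19, KRT13 and KRT80 had higher levels in members of both libraries, with intervals above 0. KRT19, found in simple epithelia, reached 1431 CPM in RWPE-ERG-mAKT members and 473 CPM in the other cells, a log2 ratio of 1.60 (1.57 to 1.63). In RWPE1 it had 1122 CPM in members and 891 CPM in the other cells, a log2 ratio of 0.33 (0.31 to 0.36), which was 0.20 without the 1503 cells. KRT7, another simple-epithelium keratin, had 2606 CPM in RWPE-ERG-mAKT members and 2663 in the other cells (-0.03), and 2440 against 2059 CPM in RWPE1 (0.24, or 0.30 without the 1503 cells). KRT13, a keratin of intermediate and hillock cells, had 24.0 CPM in RWPE-ERG-mAKT members and 6.58 in the other cells (1.87), and 335 CPM in RWPE1 members and 205 in the other cells (0.71, or 0.58 without the 1503 cells). In RWPE-ERG-mAKT only 27 of the 389 members had any KRT13 UMI and 5 cells held at least 50% of its 143 UMIs. KRT80, named after its values were seen, had 39 UMIs in RWPE-ERG-mAKT members. That was 6.54 CPM, against 3.66 in the other cells (0.84, 0.33 to 1.30). In RWPE1 it had 27.6 against 13.5 CPM (1.03, or 0.91 without the 1503 cells).

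**Figure D2:**
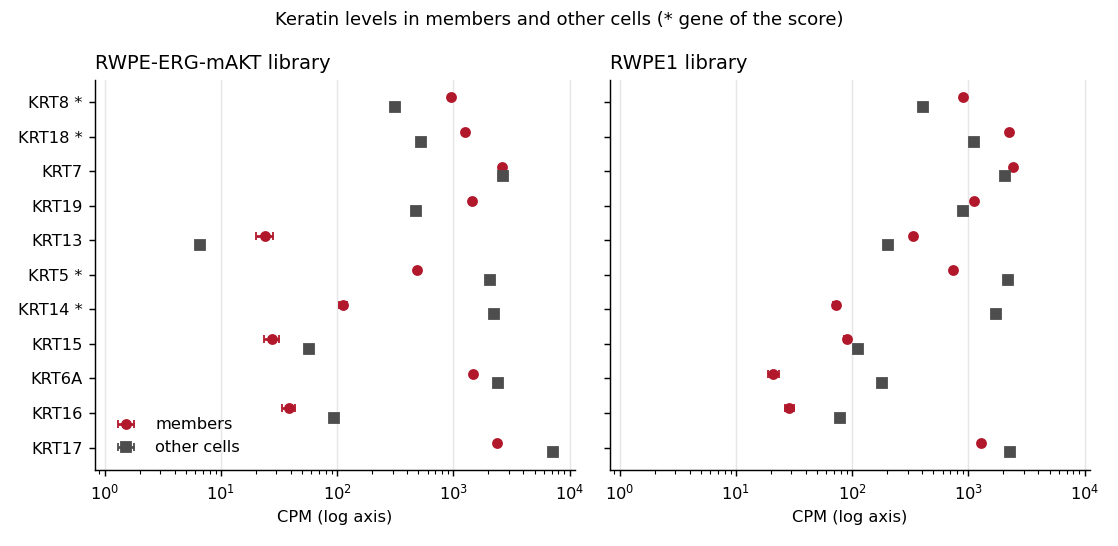
Levels of 11 keratins in members (red circles) and other cells (grey squares) of RWPE-ERG-mAKT (left) and RWPE1 (right), as CPM on a log axis with 95% counting intervals. KRT19 and KRT13 lie to the right in members and KRT17, KRT16 and KRT6A to the left in both libraries, and the genes of the score carry an asterisk.

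Over 8107 genes with at least 10 CPM in each library, more genes were lower than higher in members. In RWPE-ERG-mAKT 105 genes were over 1.5-fold higher (1.3% of genes) and 498 were over 1.5-fold lower (6.14%). In RWPE1 the numbers were 16 higher (0.197%) and 132 lower (1.63%). In both libraries at once 6 genes were higher (0.074%) and 82 lower (1.01%). The 82 were 16.5% of the genes lower in RWPE-ERG-mAKT and 62.1% of those lower in RWPE1. The median log2 ratio of all genes was -0.06 in RWPE-ERG-mAKT and -0.01 in RWPE1. When members were chosen on a random 50% of each cell's UMIs and described on the rest, 70 of the 82 and 3 of the 6 passed in both libraries. When the 1503 RWPE1 cells were left out, 46 of the 82 and 3 of the 6 still passed in both libraries. Of the groups described below, 5 of 6 mesenchymal genes dropped out, while 4 of 7 basal, 4 of 4 squamous and 3 of 3 activation keratin genes stayed.

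Basal genes beyond KRT5 and KRT14 were lower in members, all of those measured in RWPE-ERG-mAKT and fewer in RWPE1. Of 17 measured basal genes, all 17 were over 1.5-fold lower in RWPE-ERG-mAKT members, with a median log2 ratio of -1.29, and 7 of 17 in RWPE1, with a median of -0.39. Without the 1503 cells 4 of 17 were lower in RWPE1 and the median was -0.31. Over all genes 6.14% were lower in RWPE-ERG-mAKT and 1.63% in RWPE1, or 65 of 8034 without the 1503 cells. TP63 (chromosome 3, 189631416 to 189897279), which maintains the basal lineage, had 22.3 CPM in RWPE-ERG-mAKT members and 62.7 in the other cells, a log2 ratio of -1.49 (-1.75 to -1.25). In RWPE1 it had 79.7 CPM in members and 147 in the other cells, a log2 ratio of -0.89 (-0.97 to -0.80) that was -0.86 without the 1503 cells. COL17A1, a transmembrane collagen of the hemidesmosome, had 23.6 CPM in RWPE-ERG-mAKT members and 115 in the other cells (log2 ratio -2.28), and 90.3 CPM in RWPE1 members and 178 in the other cells (-0.98, or -0.86 without the 1503 cells). ITGA6, the laminin-binding integrin subunit of the same structure, had 36.7 against 89.9 CPM in RWPE-ERG-mAKT (-1.29) and 103 against 174 CPM in RWPE1 (-0.76).

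For other basal genes the RWPE1 ratio was smaller in size. LAMA3, a laminin chain, had a RWPE1 ratio of -0.74, which was -0.42 without the 1503 cells and no longer reached 1.5-fold. The same was so for DST, a hemidesmosome plakin (-0.59, then -0.47). ITGB4, the integrin that pairs with ITGA6, had 33.9 against 143 CPM in RWPE-ERG-mAKT (-2.08) and 162 against 213 CPM in RWPE1 (-0.39). DKK3, a secreted glycoprotein enriched in basal cells, was at 14 UMIs in RWPE-ERG-mAKT members (2.35 CPM, against 11.8 in the other cells) and at 14.2 CPM in RWPE1 members, against 26.0. Beyond the list, FAT2 was among the 12 lowest genes of both libraries with at least 20 CPM in each. FAT2, an atypical cadherin of stratified epithelium, had 8.05 against 30.2 CPM in RWPE-ERG-mAKT (-1.91) and 20.6 against 55.5 CPM in RWPE1 (-1.43). BCL11B, a zinc finger transcription factor of stratified epithelium that was chosen after its values were seen, rested on 5 UMIs in RWPE-ERG-mAKT members (0.838 CPM, against 10.6) and stood at 6.47 against 20.01 CPM in RWPE1.

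**Figure D3:**
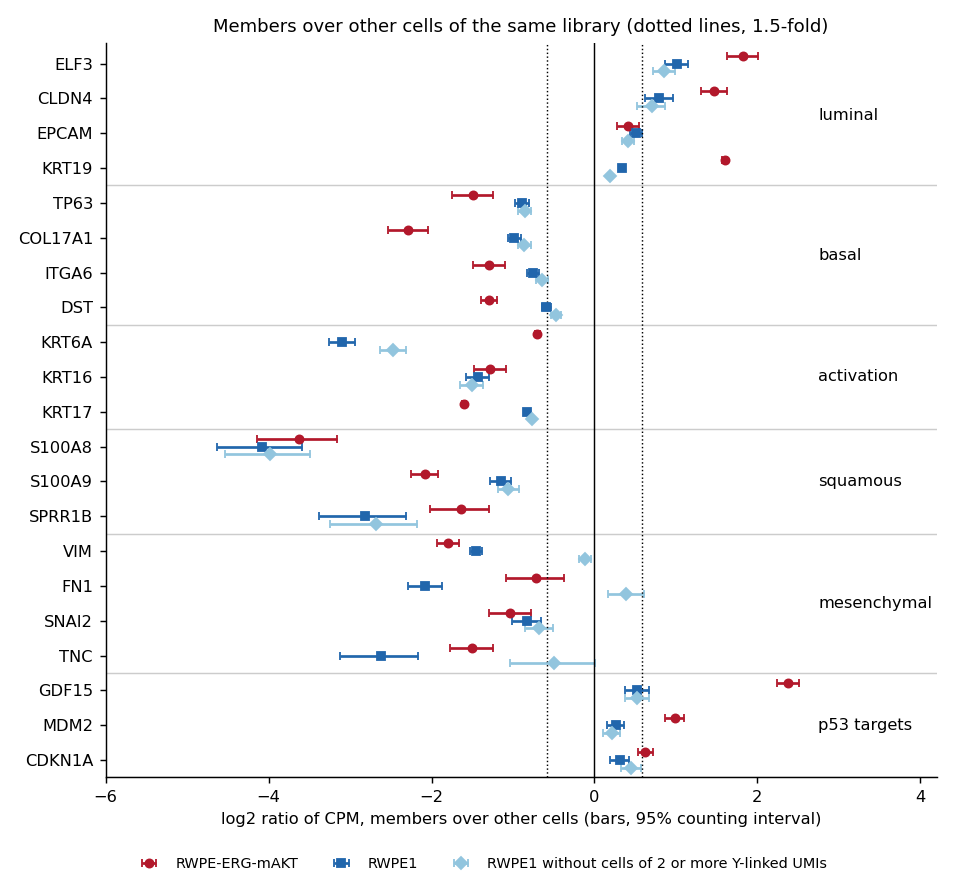
Log2 ratio of CPM in members over other cells (x axis, bars are 95% counting intervals) for genes of 6 groups, in RWPE-ERG-mAKT (red circles), RWPE1 (dark blue squares) and RWPE1 without the 1503 cells of 2 or more Y-linked UMIs (light blue diamonds). Basal, activation and squamous genes lie left of 0 in all 3 sets, while VIM moves to -0.12 and FN1 to 0.39 in the last set.

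All 3 measured activation keratins were lower in members of both libraries, and stayed so without the 1503 cells. The share of all genes lower in both was 1.01%, or 47 of 8034 without those cells. KRT17 had 2356 CPM in RWPE-ERG-mAKT members and 7163 in the other cells (-1.60), and 1284 CPM in RWPE1 members and 2272 in the other cells (-0.82). The median RWPE-ERG-mAKT member had 13.4 KRT17 UMIs per 10000, against 60.4 in the median other cell. KRT16 had 38.4 against 93.2 CPM in RWPE-ERG-mAKT (-1.28) and 28.8 against 77.9 CPM in RWPE1 (-1.43). In RWPE1, 24.4% of the members' KRT16 UMIs came from a single cell. KRT6A had the larger ratio in RWPE1, with 21.02 CPM in members and 180 in the other cells (-3.10, or -2.47 without the 1503 cells), and had 1477 against 2403 CPM in RWPE-ERG-mAKT (-0.70). The difference of the 2 ratios was 2.39 (2.23 to 2.55). KRT6A shares long stretches of sequence with KRT6B and KRT6C, so the division of reads among the 3 is uncertain.

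Of 5 measured squamous differentiation genes, 4 were lower in members of both libraries, and the same 4 without the 1503 cells. Among all genes 1.01% were lower in both libraries, or 47 of 8034 without those cells. S100A8 and S100A9 encode the subunits of calprotectin, an antimicrobial protein of stressed epithelium. S100A9 had 49.0 CPM in RWPE-ERG-mAKT members and 208 in the other cells (-2.09), and 34.0 CPM in RWPE1 members and 75.5 in the other cells (-1.15). In RWPE1, 73.6% of the members' S100A9 UMIs came from a single cell, so that level describes few members. S100A8 had 36 UMIs in RWPE-ERG-mAKT members (6.04 CPM, against 74.7 in the other cells) and 32 UMIs in RWPE1 members (2.07 CPM, against 35.1). Its expression was very uneven, since 69 of 13751 other cells in RWPE-ERG-mAKT and 10 of 9146 in RWPE1 held at least 50% of its UMIs, and 1 RWPE1 member held 15 of the 32. SPRR1B, a precursor of the cornified envelope, had 11.2 against 35.1 CPM in RWPE-ERG-mAKT and 2.005 against 14.1 CPM in RWPE1. Of its 31 UMIs in RWPE1 members, 45.2% came from a single cell. SERPINB13, a keratinocyte protease inhibitor, had 17.6 against 37.8 CPM (-1.10) and 12.03 against 27.1 CPM (-1.17), in that order of libraries. Of the 29 squamous genes listed, 10 had no UMI in RWPE-ERG-mAKT members and 5 had none in RWPE1 members.

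Mesenchymal genes were lower in RWPE-ERG-mAKT members, and in RWPE1, SNAI2 apart, only while the 1503 cells were counted among the rest. Of 8 measured genes, 7 were over 1.5-fold lower and 1 higher in RWPE-ERG-mAKT (median -1.11). In RWPE1 6 were lower (median -0.91), of which 1 remained without the 1503 cells (median -0.23). The shares of all genes were 6.14% lower and 1.3% higher in RWPE-ERG-mAKT, and 1.63% lower in RWPE1. Without the 1503 cells 65 of 8034 genes were lower in RWPE1. VIM, the intermediate filament of mesenchymal cells, had 79.3 CPM in RWPE-ERG-mAKT members and 275 in the other cells, a log2 ratio of -1.80 (-1.93 to -1.66). In RWPE1 VIM had 99.7 CPM in members and 273 in the other cells (-1.46), and without the 1503 cells 98.7 against 107 CPM (-0.12, -0.19 to -0.04). FN1, which encodes fibronectin, had 11.6 against 19.0 CPM in RWPE-ERG-mAKT (-0.72) and 12.7 against 53.7 CPM in RWPE1 (-2.08), where it turned to 0.39 (0.17 to 0.60) without the 1503 cells. SNAI2, a repressor of E-cadherin that basal cells also express, was the gene that remained, with 22.1 against 45.3 CPM in RWPE-ERG-mAKT (-1.03) and 18.7 against 33.3 CPM in RWPE1 (-0.83, then -0.68).

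CDH1, which encodes E-cadherin, differed little, with 106 CPM in RWPE-ERG-mAKT members against 100 in the other cells (0.09) and 98.3 against 101 CPM in RWPE1 (-0.03). The gene that was higher in RWPE-ERG-mAKT members was TWIST1, a transcription factor of mesenchymal programmes, with 39.1 against 23.3 CPM (0.74), and it had 12.997 against 16.1 CPM in RWPE1. TNC, a matrix glycoprotein, had 20.5 against 58.2 CPM in RWPE-ERG-mAKT (-1.51), although 50.8% of the members' TNC UMIs came from 1 cell. DCN, a proteoglycan best known from fibroblasts, was higher in RWPE-ERG-mAKT members (47.5 CPM, against 22.4 in the other cells) and was spread over 124 of 389 members with at most 9 UMIs in a cell. Of the other fibroblast genes, COL1A1 had 4 UMIs in these members (0.671 CPM, against 2.95 in the other cells) and LUM, PDGFRA, COL1A2 and COL3A1 had 0, and in RWPE1 DCN had 3 UMIs in members. Whether another cell type played a part was not tested beyond these levels. Summed over the 6 endothelial genes listed, members had 1.17 CPM in RWPE-ERG-mAKT, against 1.16 in the other cells, and 1.16 CPM in RWPE1, against 1.02.

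Of the luminal genes outside the score, a claudin and an epithelial transcription factor passed 1.5-fold in members of both libraries. Of 8 measured luminal genes outside the score, 3 were over 1.5-fold higher in RWPE-ERG-mAKT members (KRT19, CLDN4 and ELF3, median log2 ratio 0.42). In RWPE1 members 2 were (CLDN4 and ELF3, median 0.36), and none was lower in either library. Over all genes 1.3% were higher in RWPE-ERG-mAKT and 0.197% in RWPE1. The log2 ratio was above 0 for 7 of the 8 in RWPE-ERG-mAKT, against 38.7% of all genes. In RWPE1 it was above 0 for 8 of 8, against 46.8% of all genes. ELF3, an epithelial ETS transcription factor, had 41.6 CPM in RWPE-ERG-mAKT members and 11.8 in the other cells, a log2 ratio of 1.82 (1.62 to 2.01). In RWPE1 it had 32.6 CPM in members and 16.2 in the other cells, 1.01 (0.87 to 1.15), and 0.86 without the 1503 cells. CLDN4, a tight junction claudin, had 61.2 against 22.1 CPM in RWPE-ERG-mAKT (1.47) and 21.2 against 12.2 CPM in RWPE1 (0.80, then 0.70). EPS8, an actin-capping adaptor of receptor tyrosine kinases, had 83.0 against 50.2 CPM (0.73) and 30.9 against 20.4 CPM (0.60), and it too stayed above 1.5-fold. PTGES, the prostaglandin E synthase, COBL, an actin nucleator, and NALCN, a sodium leak channel, passed in both libraries with all RWPE1 cells (0.69, 0.59 and 0.59 in RWPE1) and not without the 1503 cells (0.56, 0.43 and 0.49). The set of higher genes depended on the score. Of the 6, 5 passed when KRT8 over KRT5 alone chose the members (697 in RWPE-ERG-mAKT and 510 in RWPE1). With KRT18 over KRT14 alone 0 of the 6 passed, and there only 66 RWPE-ERG-mAKT cells were members, against 1140 in RWPE1.

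EPCAM and CLDN7 differed by less than 1.5-fold in both libraries, and ALDH1A3 passed 1.5-fold in RWPE-ERG-mAKT only. EPCAM, an epithelial adhesion molecule, had 76.1 against 57.3 CPM in RWPE-ERG-mAKT (0.41) and 111 against 77.5 CPM in RWPE1 (0.51). CLDN7, another claudin, had 169 against 126 CPM (0.43) and 119 against 91.2 CPM (0.39). ALDH1A3, an enzyme of retinoic acid synthesis that is expressed in luminal prostate cells, had 241 against 113 CPM in RWPE-ERG-mAKT (1.09) and 151 against 106 CPM in RWPE1 (0.52).

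Genes that define secretory luminal cells were at 0 or low in the members. KLK3 and KLK2, kallikreins secreted by luminal cells, had 0 UMIs in members of either library, which allows up to 0.503 CPM in RWPE-ERG-mAKT and 0.194 CPM in RWPE1 for each (3 counts). FOXA1, a pioneer transcription factor, had 13 UMIs in RWPE-ERG-mAKT members (2.18 CPM, against 2.03 in the other cells) and 136 UMIs in RWPE1 members (8.79 CPM, against 6.08). The name luminal-keratin skewed therefore describes keratins, and these cells are not called luminal cells here. Of 18 measured genes of adhesion junctions, 1 was over 1.5-fold higher and 4 were lower in RWPE-ERG-mAKT members. In RWPE1 members 0 were higher and 1 was lower. Over all genes the shares were 1.3% and 6.14% in RWPE-ERG-mAKT, and 0.197% and 1.63% in RWPE1.

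Of 20 luminal progenitor genes listed, 2 had at least 10 CPM in both libraries, and neither was past 1.5-fold in either. SLPI, a secreted protease inhibitor, had 1573 CPM in RWPE-ERG-mAKT members and 1248 in the other cells (0.33), and 64.5 CPM in RWPE1 members and 60.7 in the other cells (0.09). The kallikreins KLK5, KLK8 and KLK10 were sparse. KLK10 had 36 UMIs in RWPE-ERG-mAKT members (6.04 CPM, against 2.88), of which 16 came from 1 cell, and 19 UMIs in RWPE1 members (1.23 CPM, against 9.49). KLK8 had 2.85 against 0.872 CPM and 7.57 against 17.4 CPM, and KLK5 had 0 UMIs in RWPE-ERG-mAKT members (1.80 CPM in the other cells) and 3.23 against 13.5 CPM in RWPE1. In RWPE1 these 3 kallikreins thus had lower levels in members. In RWPE-ERG-mAKT KLK8 had a UMI in 2.83% of members (1.42 to 5.00), against 0.829% of the other cells (0.684 to 0.995), and the 0 UMIs of KLK5 allow up to 0.503 CPM in members.

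ERG differed by less than 1.5-fold in the library made to express it. ERG had 26.2 CPM in RWPE-ERG-mAKT members (156 UMIs) and 20.6 CPM in the other cells, a log2 ratio of 0.34. In RWPE1 it had 6 UMIs in members (0.388 CPM) and 272 UMIs in the other cells (1.53 CPM). AKT1, whose count may hold native and retroviral RNA together, had 9.89 CPM in RWPE-ERG-mAKT members and 19.4 in the other cells (-0.97), against 23.9 and 21.8 CPM in RWPE1 (0.13). TLR4, VEGFA and FLT1 were low, at 0.671, 12.4 and 0 CPM in RWPE-ERG-mAKT members and 0.242, 11.3 and 0.123 CPM in the other cells.

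Some groups passed 1.5-fold in RWPE-ERG-mAKT members and not in RWPE1 members, a difference that was not tested. Of 13 measured p53 target genes, 6 were over 1.5-fold higher there and none was lower (median 0.53), and 0 were called in RWPE1 in either direction, where the median was 0.10, or 0.12 without the 1503 cells. Over all genes 1.3% were higher and 6.14% lower in RWPE-ERG-mAKT, and 0.197% and 1.63% in RWPE1. A count of 0 among 13 genes therefore says little in RWPE1. GDF15, a stress-induced cytokine, had 80.3 CPM in RWPE-ERG-mAKT members and 15.4 in the other cells, 2.38 (2.24 to 2.52), against 27.4 and 19.0 CPM in RWPE1, 0.53 (0.38 to 0.67). MDM2, the ubiquitin ligase of p53, had 114 against 57.5 CPM (0.98) in RWPE-ERG-mAKT and 54.6 against 45.6 CPM (0.26) in RWPE1. CDKN1A, the cell cycle inhibitor p21, had 158 against 102 CPM (0.63) in RWPE-ERG-mAKT and 40.0 against 32.3 CPM (0.31) in RWPE1. RRM2B (1.20), ZMAT3 (0.89) and FDXR (0.76) were the other 3. GDF15 is also on the list of ATF4 and CHOP stress genes. Of 18 measured genes of that list, 4 were higher and none lower in RWPE-ERG-mAKT members, and 0 were higher and 1 lower in RWPE1. Median mitochondrial content was also higher in these members, as given above, and its part was not tested.

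Matrix and TGF-beta response genes were lower in RWPE-ERG-mAKT members. Of 13 measured genes of this list, 8 were lower in RWPE-ERG-mAKT (median -1.22). In RWPE1 4 were lower (median -0.18), of which 1 (ITGB6) remained without the 1503 cells (median 0.08). The shares of all genes lower were 6.14% in RWPE-ERG-mAKT and 1.63% in RWPE1. PMEPA1, an inhibitor of TGF-beta signalling that is induced by it, had 19.8 CPM in RWPE-ERG-mAKT members and 177 in the other cells (-3.16), against 122 and 153 CPM in RWPE1 (-0.33). TIMP3, an inhibitor of matrix metalloproteinases, had 4.86 against 56.3 CPM (-3.53) in RWPE-ERG-mAKT and 34.3 against 50.4 CPM (-0.56) in RWPE1. IGFBP7, a secreted binding protein, had 18.1 against 102 CPM (-2.50) and 243 against 264 CPM (-0.12). TIMP3, PMEPA1 and IGFBP7 were among the genes whose ratio differed most between the libraries, by -2.98, -2.83 and -2.38 log2 units. HSPB1, a small heat shock protein, was lower in both, with 472 against 1649.8 CPM (-1.81) in RWPE-ERG-mAKT and 223 against 415 CPM (-0.90, then -0.81) in RWPE1.

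Proliferation genes did not differ by the 1.5-fold measure. None of 26 S phase genes and none of 36 G2/M genes was called in either library, and the list medians were -0.11 and -0.01 in RWPE-ERG-mAKT. Smaller differences in RWPE-ERG-mAKT went both ways, such as CENPF at 0.38 (0.32 to 0.43) and RRM2 at -0.31 (-0.42 to -0.20). The 13 mitochondrially encoded genes had a median log2 ratio of 0.27 in RWPE-ERG-mAKT and -0.04 in RWPE1, and none was called. Of 11 antigen presentation genes none was called in either library. The shares of all genes called higher and lower were 1.3% and 6.14% in RWPE-ERG-mAKT, and 0.197% and 1.63% in RWPE1. Counts of 0 in lists of this length therefore say little in RWPE1. For the lists of 13 and 11 genes they say little in RWPE-ERG-mAKT too. For NF-kB targets, 1 of 6 was lower in both, IL1A, with 13.1 against 24.3 CPM in RWPE-ERG-mAKT (-0.89) and 14.9 against 36.0 CPM in RWPE1 (-1.27). Another of the 6 was higher in RWPE1 only, NFKB2, an NF-kB subunit, with 13.1 against 14.7 CPM in RWPE-ERG-mAKT (-0.17) and 20.8 against 13.1 CPM in RWPE1 (0.67, or 0.62 without the 1503 cells).

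Several of these genes also differed along the score below the limit, and others were uneven along it. When the cells of each library were ordered by score and cut into 10 equal parts, KRT19 in RWPE-ERG-mAKT was 30.8 CPM in part 1, 209 in part 5 and 1212 in part 10. In RWPE1 it was 264, 1019 and 1133 CPM in the same parts, so that most of its climb came before part 5. TP63 was 102, 71.0 and 24.2 CPM in RWPE-ERG-mAKT and 284, 129 and 80.5 CPM in RWPE1. COL17A1 was 224, 130 and 25.3 CPM and 286, 162 and 94.98 CPM. ALDH1A3 was 46.1, 69.5 and 220 CPM and 94.4, 104 and 151 CPM, with 81.2 CPM in part 3 of RWPE1. S100A8 was uneven, at 63.2 CPM in part 1 of RWPE1, 2.5 in part 5, 60.0 in part 9 and 2.1 in part 10, and at 160.5 CPM in part 1 of RWPE-ERG-mAKT, 146 in part 6 and 8.3 in part 10. VIM did not fall evenly in RWPE1, where it was 313 CPM in part 1, 811 in part 2 and 103 in part 10. The 1503 cells made up 23.7% of part 1, 53.7% of part 2 and 0.201% of part 10.

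**Figure D4:**
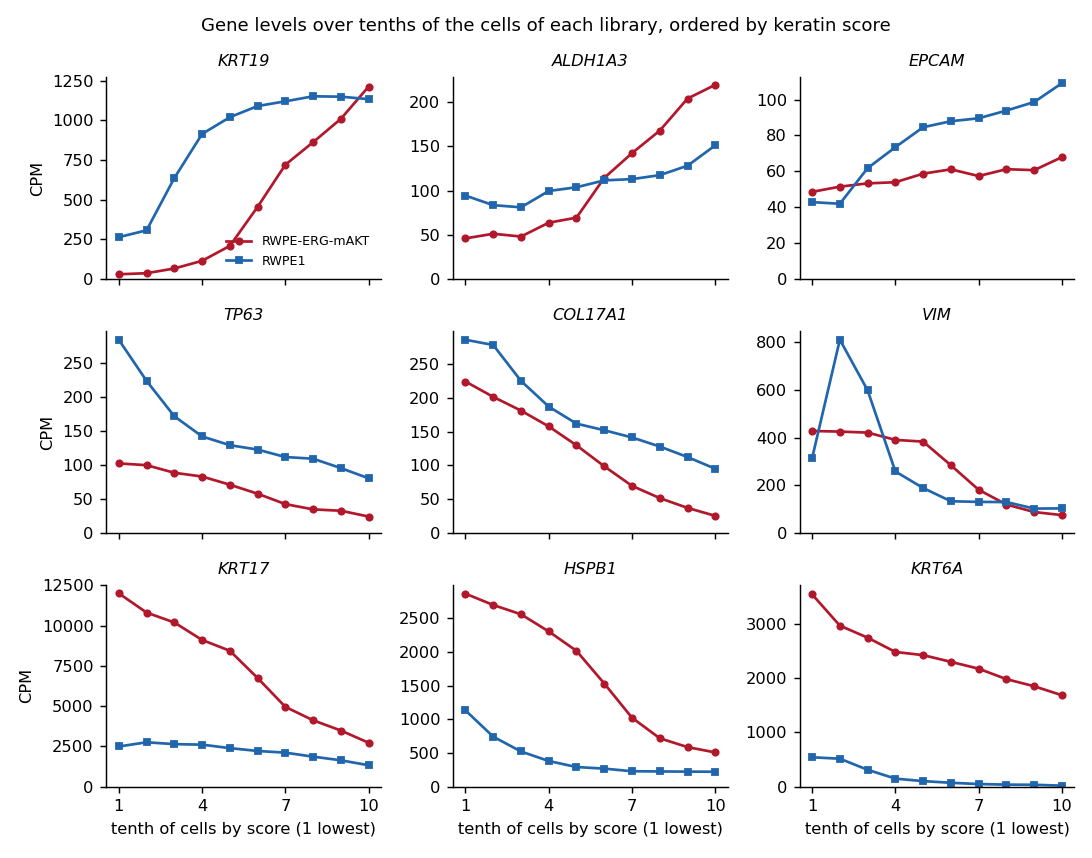
CPM of 9 genes (y axis, each from 0) over 10 equal parts of the cells of RWPE-ERG-mAKT (red circles) and RWPE1 (blue squares), ordered from the lowest to the highest keratin score (x axis). KRT19 climbs to 1212 CPM in RWPE-ERG-mAKT, TP63 and COL17A1 decline through all parts, and VIM peaks at 811 CPM in part 2 of RWPE1.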

How the data were processed

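Single cells of RWPE-ERG-mAKT and RWPE1 were measured in 1 droplet 3' library each. The authors made the deposited raw UMI counts with Cell Ranger 7.1.0 on hg38, per the submitters' processing notes, without normalization. The libraries held 237490385 and 217340524 UMIs. Cells with over 2500 genes and under 7.5% mitochondrial UMIs were kept (14140 of 17355 and 9967 of 12504 barcodes), a choice that differs from the study's limit of 200 to 2500 genes. No doublet caller was used.

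UMIs were summed over members and over the other cells of a library and given as CPM. Ratios carry exact intervals of Poisson counts and shares exact Clopper-Pearson intervals, both at 95%. Genes with at least 10 CPM in each library were compared, and over 1.5-fold counted as called. No test was made, since each condition has 1 library. The functions were tested on simulated data. Coordinates are from GENCODE 29.

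The members and the 39 gene lists were chosen with earlier results of these data known. Named were the score genes, the 12 highest and 12 lowest genes over both libraries with 20 CPM, up to 4 genes of each list, the genes the paper names, and the 5 genes each way that differed most. Further list members are named where a count turns on them, chosen after their values were seen. Y-linked genes are given as numbers of cells only, and some genes of this rule are not reported here. Alternatives were other percentiles, filters, scores, depths and scalings. Scripts ran on Python 3.11.15 with pandas 2.3.3, scipy 1.17.1, matplotlib 3.10.9 and numpy 2.4.6.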

Additional observations from a re-analysis of the deposited data

Results flagged for a closer look

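GSN, which encodes the actin-severing protein gelsolin, went past 1.5-fold in opposite directions in the 2 libraries. It had 87.0 CPM in RWPE-ERG-mAKT members and 53.2 CPM in the other cells, a log2 ratio of 0.71 (0.58 to 0.84), and 33.4 CPM in RWPE1 members and 56.3 CPM in the other cells, a log2 ratio of -0.75 (-0.88 to -0.62). Without the 1503 RWPE1 cells with 2 or more Y-linked UMIs, in which GSN stood at 163 CPM, the RWPE1 ratio was -0.20 and no longer past 1.5-fold. The difference between the libraries was not tested, since each condition has 1 library.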

How the results depend on the processing

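Over 14 settings, 1720 of 1742 values of named genes past 1.5-fold kept their direction. The count includes the 4 score genes, whose direction follows from the choice of members. RWPE-ERG-mAKT had a smaller share of members than RWPE1 at the 90th percentile (6.32% and 15.2%), at the 99th (0.446% and 1.94%), with KRT18 over KRT14 alone (0.467% and 11.4%) and with members chosen on a random 50% of the UMIs (3.11% and 7.70%). It was close with KRT8 over KRT5 alone (4.93% and 5.12%), and a percentile within each library fixes it (5.01% each). In RWPE-ERG-mAKT it was 4.86% in cells of 200 to 2500 genes and 3.13% in cells thinned to 5000 UMIs. Without the 1503 RWPE1 cells, a setting chosen after the data were seen, the RWPE1 share was 9.69%, with 3 genes higher and 47 lower in both libraries.

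Genes higher and lower in both libraries numbered 17 and 124 at the 99th percentile, 96 and 562 in cells of 200 to 2500 genes (31 RWPE1 members), 0 and 25 with a minimum of 50 CPM, 666 and 554 with no minimum, and 1 and 21 at 2-fold. With KRT8 over KRT5 15 were higher, and with KRT18 over KRT14 (66 RWPE-ERG-mAKT members) 1 was.

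In cells of 200 to 2500 genes the direction turned for IL1A (0.042 in RWPE-ERG-mAKT and 0.79 in RWPE1), IFI27 (0.32 and 0.034), RRM2B (-0.19) and MDM2 (-0.53) in RWPE-ERG-mAKT, and in RWPE1 for ITGB6 (1.22), AKAP12 (-0.74), NRG1 (0.84), KRT16 (0.44), KLK5 (1.81), KLK8 (0.19) and JAG1 (0.30). In RWPE-ERG-mAKT it turned for TNC at the 99th percentile (0.80), KLK10 after thinning (-1.17), TCN2 with KRT8 over KRT5 (-0.049), and HK2 (0.13), MDM2 (-0.11) and KLK8 (-0.24) with KRT18 over KRT14. In RWPE1 it turned for S100A9 with KRT8 over KRT5 (0.11), and for FN1 (0.39) and CDH2 (0.47) without the 1503 cells. The cause was not tested. No paired analysis was possible because each condition has 1 library. Depth limits the sparse genes, and a minimum of 10 CPM leaves KRT13, KRT80 and DCN out of the counts.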
